A study of Mus musculus with 18 samples.

Results

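HPRT-knockdown ESD3 cells were compared at the first step of neural differentiation, from embryonic stem (ES) cells to spherical neural masses (SNM). The comparison took the 6 of 18 arrays whose sample titles name HPRT knockdown cells at these stages, 3 for ES and 3 for SNM. Of 45281 probes on the array, 21467 were detected at ES, at SNM or at both, each time on all 3 arrays, and were tested.

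ESD3 is a mouse ES cell line of strain 129s2/SvPas, grown here on mouse embryo fibroblast feeders with leukemia inhibitory factor and basic FGF. The knockdown cells carried a virally delivered shRNA against HPRT, designed on the human sequence, and control cells at the same stages carried an shRNA against luciferase. Both were puromycin-selected. The number of clones is not given in the sources used here. RNA from replicate cultures of a condition was pooled, and the 3 arrays of that condition measured this pool, so each SD and each test reflects repeat arrays of a pool and says nothing of how cultures varied. Expression was measured on Illumina MouseWG-6 v2 bead arrays, and all levels are log2 normalized signals. A change is the mean at SNM minus the mean at ES. A probe is said to rise or fall at an adjusted p under 0.05 (limma, Benjamini-Hochberg over all tested probes) and a change of at least 1.5-fold.

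ES cells keep themselves undifferentiated through a network of transcription factors around Oct4, Nanog and Sox2, and they divide rapidly with a short G1 phase. An SNM is a floating sphere of neural precursors grown from ES cells that can be expanded and then plated to give neurons, often dopaminergic ones. Precursors along the neural tube take on regional identities under signals such as sonic hedgehog ventrally and Wnt, FGF and retinoic acid along the length of the axis. HPRT recycles hypoxanthine and guanine into purine nucleotides, and its loss in humans causes Lesch-Nyhan disease.

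The targeted gene was followed first. Hprt1, on chromosome X, had log2 levels of 8.14, 7.96 and 7.75 on the knockdown ES arrays and 9.34, 9.47 and 9.50 on the knockdown SNM arrays. Control cells had a mean of 12.04 at ES and of 11.20 at SNM. The knockdown arrays lay below the control arrays at both stages with no overlap. Within knockdown cells Hprt1 nevertheless rose by 1.49 (SE 0.08, adjusted p = 2.68e-11), and all 3 of its probes rose. In control cells it changed by -0.84, and the difference of these changes passed the test (adjusted p = 2.17e-10). The gap between knockdown and control cells was thus narrower at SNM than at ES.

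Between 18827 and 19982 probes were detected on a knockdown ES array and between 21853 and 22202 on a knockdown SNM array. Arrays of the same stage correlated across probes at 0.993 to 0.997, and arrays of different stages at 0.897 to 0.901. In all, 26.4% of the tested probes rose and 30.9% fell, so that 57.3% passed the test in either direction, and the median change of all tested probes was -0.11. Rises were the larger changes: 1600 probes rose and 727 fell by at least 4-fold on the fitted values, and 269 rose and 58 fell by at least 16-fold. Of the probes called, 46.1% rose. This share was 60.0% without scaling between arrays and 37.8% with scaling to the 75th percentile, and these settings moved the median of the same probes to 0.12 and -0.21. Rises also came more often from genes near background: 2399 probes were detected on no ES array and on all SNM arrays, and 619 the other way round. For a probe not detected on all 3 arrays of one stage, the fold is given as a lower bound.

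Members of 31 gene lists were followed, each represented by its brightest probe. Counts of risen and fallen members are to be read beside the 26.4% and 30.9% of all tested probes. A list member that passed the detection filter only through the stage where it was bright was bound to differ, so the counts below describe the tested members and not the whole list. With members below background at one stage set to their lower bound, the median given below became 2.01 for neural precursor genes, 1.83 for proneural factors, 1.99 for synaptic genes, 2.72 for astrocyte genes, 1.96 for oligodendrocyte genes, 2.14 for fibroblast genes and 2.87 for neural crest genes. With no detection filter it became 0.46 for ventral forebrain genes, 0.44 for mesoderm and muscle genes, 0.15 for Hox genes and 0.06 for retinoid genes. In bulk RNA, fewer cells of a type and less RNA per cell cannot be told apart.

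**Figure D1:**
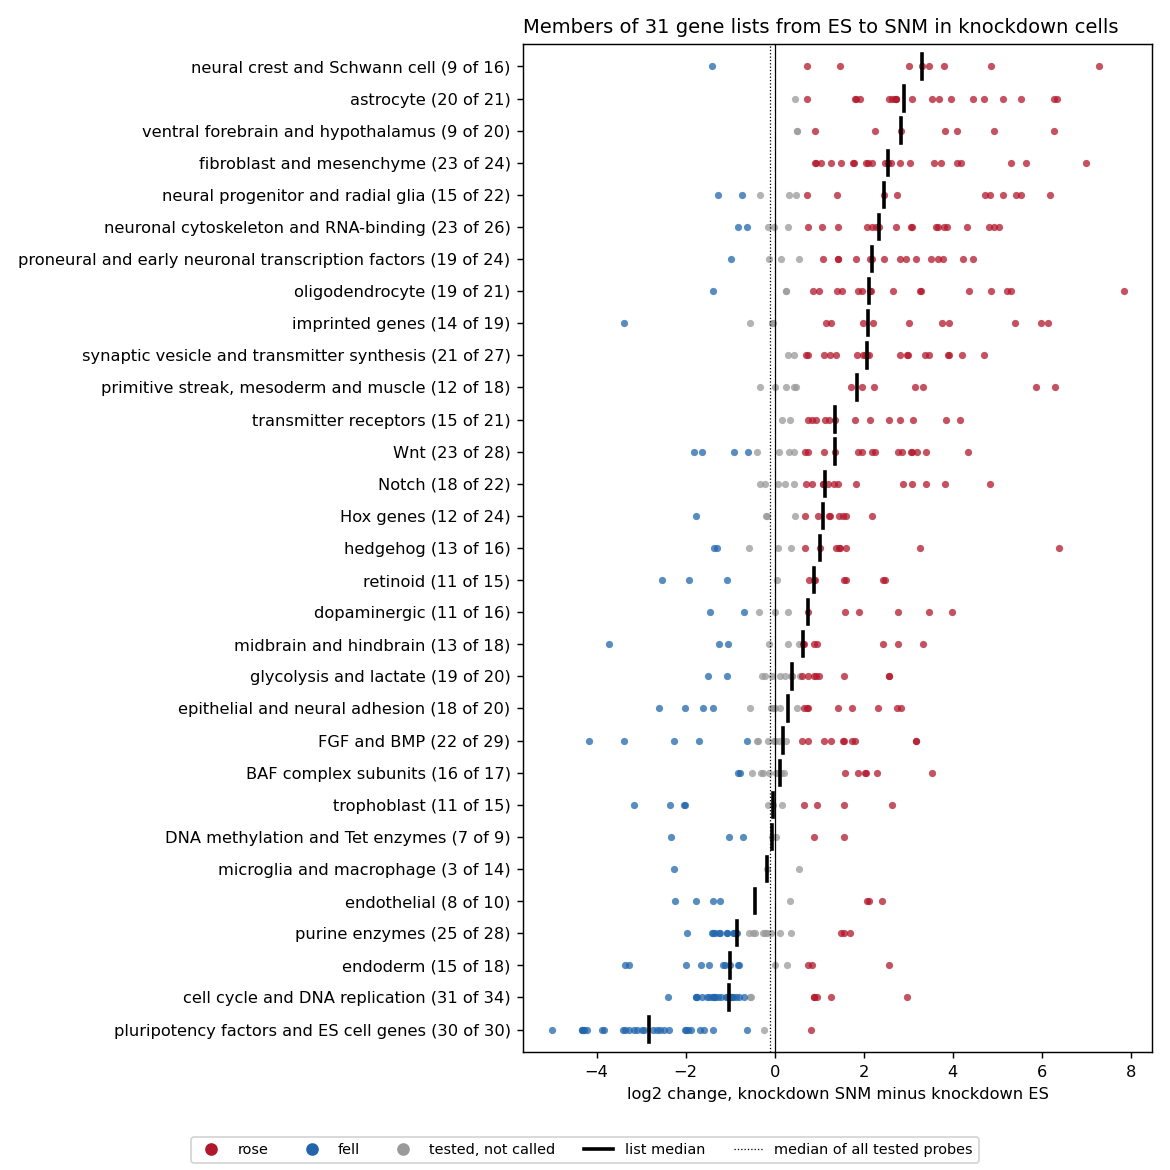
Each point is the log2 change (knockdown SNM minus knockdown ES, x axis) of 1 tested member of the gene list named on the y axis, where the number of tested members and of members on the array stands in parentheses. Red points rose, blue points fell and grey points were not called. Black bars mark list medians, from 3.32 for neural crest and Schwann cell genes to -2.83 for pluripotency genes, and rest on the members that passed the detection filter. The dotted line marks the median of all tested probes at -0.11.

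Pluripotency genes fell almost as a group. Of 30 genes of the list, 28 fell and 1 rose, with a median change of -2.83 (SD over arrays 0.05). Pou5f1, which encodes Oct4, had levels of 12.43, 12.26 and 12.33 at ES and 9.88, 9.82 and 9.85 at SNM. Nanog went from 12.68, 12.45 and 12.52 to 9.71, 9.84 and 9.90. Neither gene's arrays overlapped between stages, and both remained detected on every SNM array. Pou5f1 fell by 2.49 (SE 0.08, adjusted p = 2.64e-14) and Nanog by 2.73 (SE 0.07, adjusted p = 6.66e-15). Zfp42, also known as Rex1 and a marker of the naive state, dropped by 4.32 (20.0-fold). The largest fall in the list was that of Tcl1, an Akt coactivator, by 5.00. Lefty1, an inhibitor of Nodal, fell by 4.32. Nodal itself, the TGF-beta ligand of the early embryo, fell by 4.29.

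Sox2, shared by ES cells and neural precursors, did not follow them. Its brighter probe read 10.87, 10.69 and 10.80 at ES and 10.51, 10.29 and 10.86 at SNM. These values overlap, and the change of -0.24 (SE 0.13) did not pass the test (adjusted p = 0.109). Its second, dimmer probe fell by 0.77, so the probes of this gene disagree. The member that rose was Spp1, the secreted phosphoprotein osteopontin, by 0.82, a call that was lost with scaling to the 75th percentile (0.41).

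Compared with the change in control cells, 11.7% of 22125 tested probes changed more upward in knockdown cells and 9.61% more downward, 21.3% in either direction. In the pluripotency list the change was lower in knockdown cells for 15 of 30 members and higher for 3. The list medians were -2.83 in knockdown and -2.30 in control cells. The difference was called for Nanog (-2.73 against -2.08) and Fbxo15, a target of Oct4 (-4.29 against -2.96), and not for Pou5f1 (-2.49 against -2.36). For Nanog it was lost when 1 knockdown ES array, number 1, was left out. The brighter probe of Sox2 changed more upward than in control cells, by 0.62 (adjusted p = 0.0153 for the difference). That call was lost with 75th percentile scaling (0.50) and without scaling between arrays (0.50).

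Germline genes stood among the largest falls. They were picked out after the values were seen, from the 10 largest falls by lower bound to a stage below background and the 10 largest between detected levels. Dazl, an RNA-binding protein of germ cells, had levels of 10.60, 10.44 and 10.39 at ES and was detected on none of the SNM arrays, at 4.62, 4.59 and 4.65. It was at least 55.5-fold lower at SNM (adjusted p = 2.62e-18). Tex19.1, a germ cell and ES cell gene that restrains retrotransposons, went from 11.97, 11.87 and 11.78 to 6.64, 6.48 and 6.44. This was the largest fall between stages that were both detected, clone and predicted names left out, by 5.35 (SE 0.07, 40.9-fold). Its paralog Tex19.2 was at least 28.7-fold lower, the testis tubulin Tuba3a at least 35.7-fold on 1 of its dimmer probes, the testis ribosomal protein gene Rpl39l at least 34.7-fold and the meiotic kinase Aurkc at least 24.1-fold. All arrays of each of these probes were separated between stages. The 4 probes of Tuba3a disagree in size: its representative probe went from a mean of 9.94 to 9.22 and fell by 0.72, while the other 3 fell to means of 4.50 to 4.80. Tex19.1 fell more than in control cells, where it changed by -2.76, and the difference for Dazl was not called (-5.85 against -5.40). Tuba3a and Rpl39l have close relatives in the genome, so their signals may include those of related transcripts.

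**Figure D2:**
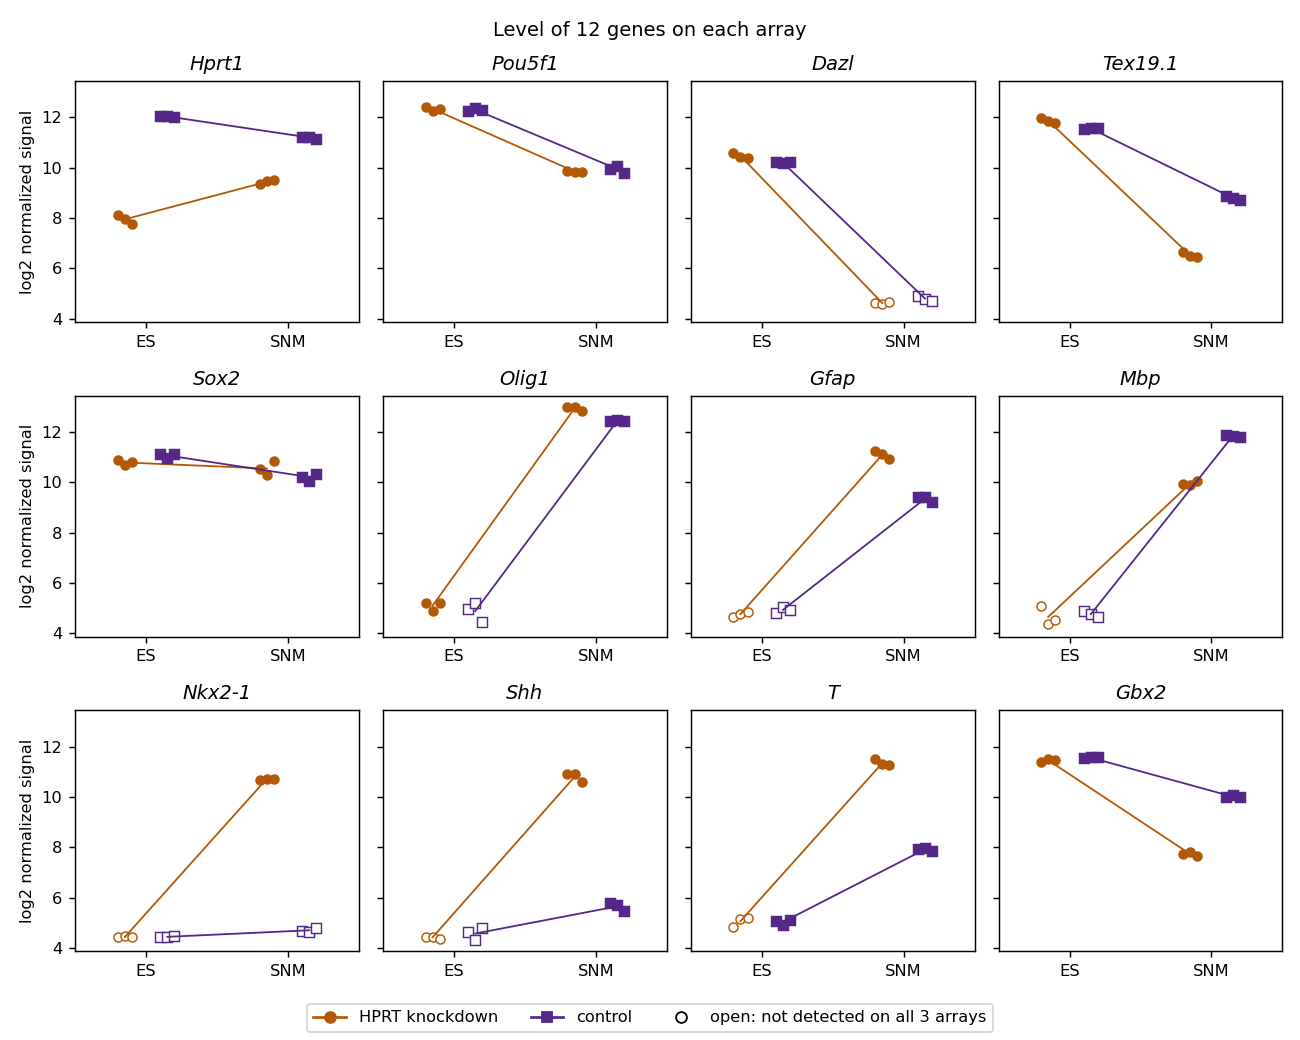
Log2 normalized signal (y axis) of 12 genes on every array at the ES and SNM stages (x axis), with circles for HPRT-knockdown and squares for control cells and lines joining the means of 3 arrays. Open symbols mark a condition in which the probe was not detected on all 3 arrays. Nkx2-1 and Shh left the background in knockdown cells to reach 10.6 to 10.9, whereas Dazl sank into it in both cell types.

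Genes of the cell cycle and DNA replication fell moderately and together. Of 34 genes on the array 31 were tested: 24 fell and 5 rose, and the median change was -1.02 (SD 0.04). Cyclin E1, Ccne1, which drives entry into S phase, went from 9.22, 9.12 and 9.09 to 6.76, 6.74 and 6.71 and fell by 2.40 (SE 0.10, adjusted p = 2.67e-12). Mcm3, a subunit of the replicative helicase, went from 8.92, 8.84 and 8.98 to 7.27, 7.18 and 6.99, a fall by 1.77. Ccnb1, the mitotic cyclin B1, went from 11.83, 11.81 and 11.69 to 10.39, 10.40 and 10.55, a fall by 1.33. The stages did not overlap for any of these genes. The proliferation marker Mki67 was lower by 0.53 and fell short of the 1.5-fold threshold, although it passed with 75th percentile scaling (-0.59) and without knockdown SNM array 2 (-0.65). A dimmer probe of Mki67 changed in the same direction, by -0.63, and passed the threshold. The genes that rose were the D-type cyclins Ccnd1 and Ccnd2 and the cyclin-dependent kinase inhibitors Cdkn1a, Cdkn1b and Cdkn1c. Ccnd2 had the largest rise of these at 2.97, and the rise of Ccnd1 (0.88) was lost with 75th percentile scaling and not called on 1 of its 3 tested probes.

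Set against control cells, the change was lower in knockdown cells for 17 of the 31 members, among them Cdkn1c, which rose less. For none was it higher, and the medians were -1.02 and -0.50. Ccne1 changed by -1.39 in control cells, Mcm3 by -1.0 and Ccnb1 by -0.69, and each difference passed the test. The sum of the list's signals lay between 52795 and 53212 on the knockdown ES arrays and between 29178 and 29898 on the SNM arrays.

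Promoters of cell cycle genes often carry pairs of CCAAT boxes, the element bound by the factor NF-Y. Because this group moved together, the 250 bases before the RefSeq start sites (build GRCm38.p6) are shown for 4 members that fell, chosen after the values were seen for holding at least 2 such elements. They run 5' to 3' on the strand of the gene, and capitals mark CCAAT or its reverse complement ATTGG.
Aurka, chr2:172370571-172370820, minus strand: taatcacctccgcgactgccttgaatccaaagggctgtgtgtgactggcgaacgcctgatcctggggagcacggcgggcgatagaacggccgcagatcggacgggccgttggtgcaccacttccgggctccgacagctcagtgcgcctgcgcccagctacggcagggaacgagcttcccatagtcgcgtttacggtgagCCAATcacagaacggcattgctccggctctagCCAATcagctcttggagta
Ccnb1, chr13:100786487-100786736, minus strand: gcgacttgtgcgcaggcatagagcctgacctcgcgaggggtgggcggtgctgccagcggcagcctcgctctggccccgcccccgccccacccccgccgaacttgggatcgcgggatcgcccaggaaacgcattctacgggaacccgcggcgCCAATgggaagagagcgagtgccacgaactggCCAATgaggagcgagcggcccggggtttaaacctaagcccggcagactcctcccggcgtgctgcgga
Cdc2a (now Cdk1), chr10:69352913-69353162, minus strand: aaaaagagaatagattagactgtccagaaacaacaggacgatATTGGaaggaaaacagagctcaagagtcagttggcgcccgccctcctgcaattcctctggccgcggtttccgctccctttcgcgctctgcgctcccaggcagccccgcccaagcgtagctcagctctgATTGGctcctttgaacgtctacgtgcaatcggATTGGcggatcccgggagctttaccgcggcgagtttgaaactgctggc
Mcm5, chr8:75109259-75109508, plus strand: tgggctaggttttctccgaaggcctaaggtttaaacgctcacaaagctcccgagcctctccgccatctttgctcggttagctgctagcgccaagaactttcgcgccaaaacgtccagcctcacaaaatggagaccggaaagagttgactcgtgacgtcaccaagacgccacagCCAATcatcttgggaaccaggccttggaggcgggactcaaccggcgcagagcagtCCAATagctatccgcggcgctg

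In these 4 windows the element closest to the start site began 19 bases before it in Aurka, 67 in Ccnb1, 48 in Cdc2a and 22 in Mcm5. RefSeq promoters were given for 24 of the 31 tested members, and the first was taken where a gene had several. Of these, 16 (66.7%) held CCAAT on either strand and 11 (45.8%) held it at least 2 times, against 33.8% and 10.1% of all 32851 promoter windows of the same length. Of the 20 such members that fell, 14 held it and 9 held it at least 2 times. The match describes these letters only. In level, Aurka, a mitotic kinase, fell by 1.51, Cdc2a, the kinase partner of cyclin B, by 1.26 and the helicase subunit Mcm5 by 1.36.

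Among adhesion genes, the epithelial members Cdh1 (E-cadherin) and Grhl2, a factor that maintains epithelium, fell by 1.40 and 2.60, and the neural members Ncam1 and Nrcam rose by 2.84 and 2.75. Of 18 tested members of the list 8 rose and 4 fell, and 4 rose with 75th percentile scaling. N-cadherin, Cdh2, was detected on 2 of 3 SNM arrays and not called, and it was called without knockdown ES array 2 (-0.60) or without SNM array 1 (-0.65) or 3 (-0.70). The keratins Krt8 and Krt18, singled out after their values were seen, did not fall as they did in control cells. Krt8 went from 10.24, 10.24 and 10.21 to 10.99, 11.04 and 10.87 in knockdown cells, a rise by 0.74, whereas it fell by 2.67 in control cells. Krt18 changed by -0.04 and by -1.85. Both differences were called.

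Neural precursor genes were mixed. Of 22 genes of the list on the array 15 were tested: 10 rose, 2 fell, and the median change was 2.46 (SD 0.16). The median was 0.47 among members detected at both stages, of which 4 rose and 2 fell, and 0.42 with no detection filter. Fabp7, a fatty acid binding protein of radial glia, was detected on no ES array, where its mean was 4.55, and had a mean of 10.73 at SNM, at least 55.7-fold higher. Sox9, a factor of neural stem cells, glia and cartilage, went from 6.95, 7.16 and 7.02 to 12.70, 12.62 and 12.42 and rose by 5.54 (SE 0.07, adjusted p = 2.86e-18). The intermediate filament gene Nes rose by 1.40. All these arrays were separated between stages. Pax6, a factor of dorsal and forebrain precursors, went from 6.49, 6.25 and 6.60 to 5.03, 4.99 and 5.52, a fall by 1.27 (SE 0.16, adjusted p = 1.3e-06). Sox1, a marker of early neuroectoderm, and Pax3, a dorsal factor, were not tested, since neither stage detected them on all arrays.

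Of 19 tested proneural and early neuronal factors 15 rose and 1 fell, with a median of 2.18. The bHLH factor Neurog2, which commits precursors to neurons, was detected on no ES array and reached a mean of 7.13 at SNM, at least 4.58-fold higher. Sox11 rose by 4.46 and Ebf3 by 4.24. Pou4f1, a sensory neuron factor, fell by 0.98 (SE 0.11), while it changed by 0.86 in control cells and the difference was called. For this list the change was lower in knockdown cells for 7 of 20 members and higher for 1, the latter being Neurog2.

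Neuronal structural genes rose in most cases. In the list of cytoskeletal and RNA-binding genes 18 of 23 tested members rose and 2 fell, the latter being the neural splicing repressor Ptbp1 and Rbm9, and the median change was 2.35 (SD 0.32). The dendritic protein gene Mtap2 went from 6.67, 6.55 and 6.21 to 11.48, 11.64 and 11.44 and rose by 5.04 (SE 0.10, adjusted p = 1.69e-16). Dcx, a microtubule protein of migrating neurons, was at 4.67, 4.91 and 4.74 at ES and 9.08, 9.21 and 9.01 at SNM, at least 17.7-fold higher. Stmn2 rose by 0.75, a call lost with 75th percentile scaling (0.43). Tubb3, the beta-III tubulin used as a marker of neurons, read 4.94, 4.54 and 5.22 at ES and 4.89, 4.44 and 4.65 at SNM. Its single probe was detected on 1 array of each stage and was not tested. At these levels no change of the gene was measurable.

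Among genes of synaptic vesicles and transmitter synthesis, 19 of 21 tested members rose and none fell, with a median of 2.07 (SD 0.20), and 6 of 27 were too dim to test. Syp, the vesicle protein synaptophysin, went from 6.19, 6.30 and 6.34 to 9.87, 9.76 and 9.58 and rose by 3.46 (SE 0.14, adjusted p = 1.31e-12). Syt1, the calcium sensor of release, left the background to reach 9.26, 9.30 and 9.35, at least 20.6-fold higher. The vesicular glutamate transporter gene Slc17a6 was at least 13.7-fold higher, at 8.60, 8.85 and 8.69. The brightest probe of Gad1, which makes GABA, rose by 1.99, but of its 4 probes 2 rose and 1 fell. Compared with control cells, 12 of 22 members changed more upward and none more downward. Syp rose by 1.82 in control cells. The difference was not called for Syt1 (4.71 against 4.62) or Slc17a6 (4.20 against 4.55). Among transmitter receptors 13 of 15 tested members rose, with a median of 1.36, and this count was 7 with 75th percentile scaling. Only 2 of the 15 were detected on all 3 ES arrays, so the others passed the filter through SNM alone and were bound to differ. With members below background at their lower bound the median was 1.11. The AMPA receptor subunit gene Gria3 had the largest change of them and was at least 11.1-fold higher at SNM on its brightest probe, while its other 2 tested probes were not called.

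**Figure D3:**
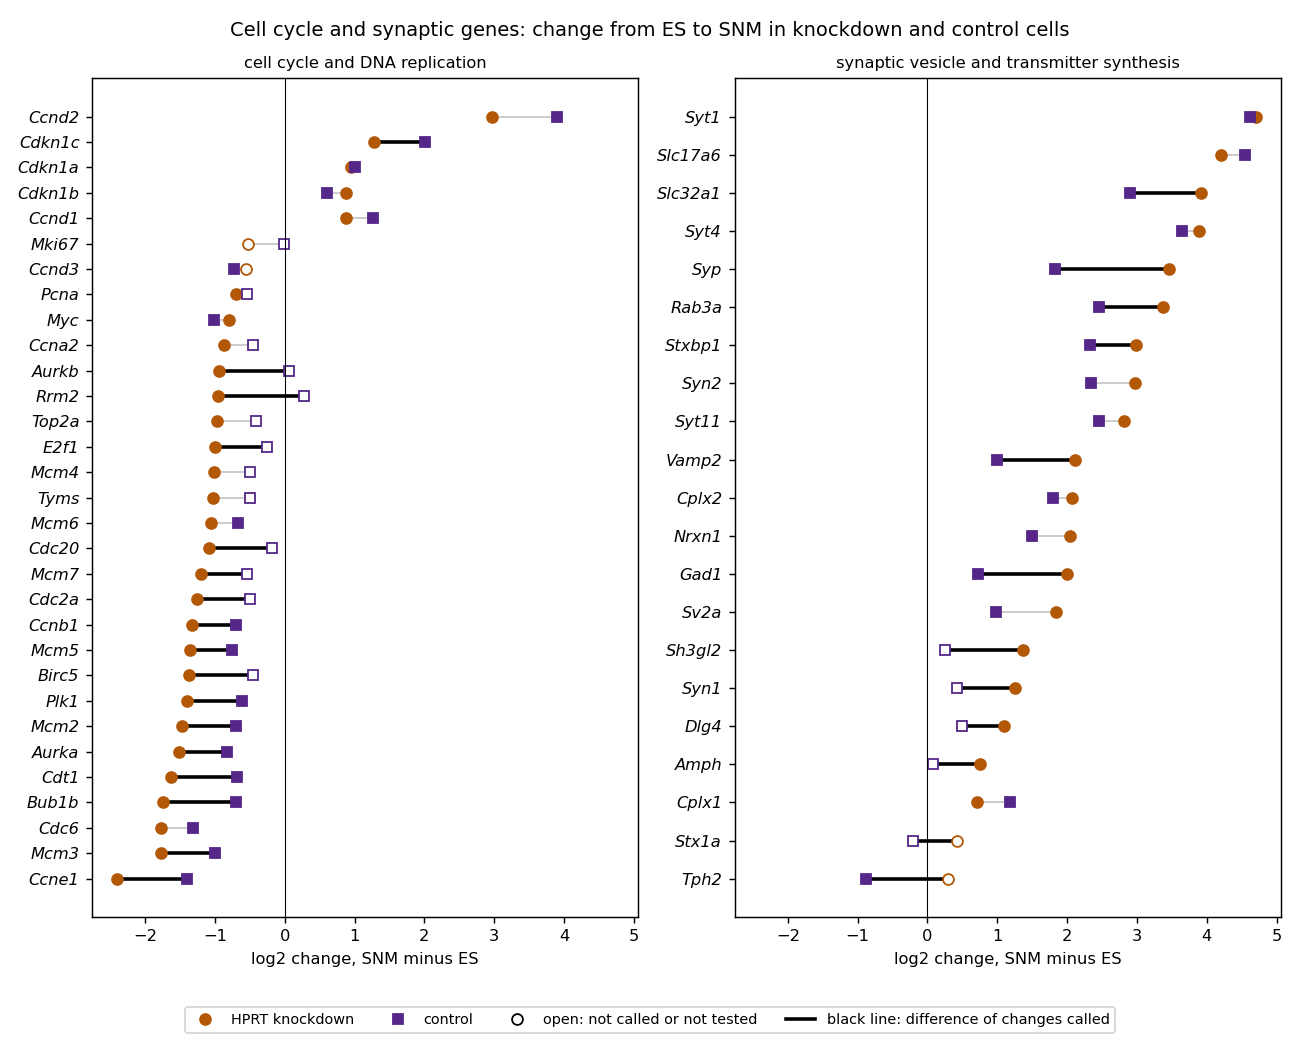
Log2 change from ES to SNM (x axis) of the tested members of the cell cycle and synaptic lists (y axis), with circles for knockdown and squares for control cells, open where not called or not tested. A black line marks a called difference between the changes. In the cell cycle list 17 black lines place knockdown cells lower, and in the synaptic list all 12 place them higher.

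Of the regional genes, Nkx2-1 differed most between knockdown and control cells. Nkx2-1, the homeobox factor of ventral forebrain and hypothalamus on chromosome 12, read 4.43, 4.46 and 4.42 at ES and 10.68, 10.73 and 10.73 at SNM. It was at least 55.1-fold higher at SNM (adjusted p = 8.43e-20). In control cells it had a mean of 4.70 at SNM and was detected on 1 of 3 arrays there. Nkx2-1 had the highest difference of the changes among probes called in both tests, clone and predicted names left out. Only 1 of its 2 probes was detected. Dlx1, a factor of ventral forebrain interneurons, rose from 4.45, 4.60 and 4.41 to 9.43, 9.42 and 9.38, at least 22.2-fold, against a change of 1.94 in control cells. Of 9 tested genes of the ventral forebrain list 7 rose and none fell, with a median of 2.83 (SD 0.22), and 11 of 20 were not tested, among them Six3. Only 1 member was detected on all 3 ES arrays, so the other tested members passed the filter through SNM alone and could hardly fall. The count and the median thus describe those members only. The change was higher in knockdown cells for 7 of 10 members and lower for 1. Rax, an eye and hypothalamus factor, was at least 1.24-fold higher on 1 of its 2 tested probes, and its call was lost with quantile normalization and with 75th percentile scaling, both without background correction.

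Midbrain and hindbrain genes went the other way when set against control cells. For 7 of 13 tested members the change was lower in knockdown cells and for none was it higher. En2, the engrailed factor of the midbrain-hindbrain boundary, read 7.20, 7.24 and 7.26 at ES and 7.59, 7.58 and 7.44 at SNM. Its change of 0.30 was under 1.5-fold, while it reached 10.30, 10.35 and 10.36 in control SNM and rose there by 2.96. Its relative En1 rose by 2.78 against 3.68. Gbx2, a factor of the anterior hindbrain that ES cells also express, went from 11.40, 11.50 and 11.48 to 7.74, 7.80 and 7.66. It fell by 3.73 (SE 0.06, adjusted p = 8.29e-18), against -1.55 in control cells. Within knockdown cells 7 of the 13 rose and 3 fell, with a median of 0.63 (SD 0.14), and only 3 rose under each of the settings without background correction.

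Of 24 Hox genes, which specify position along the hindbrain and spinal cord, 12 were tested, 8 rose and 1 fell. Hoxc6 had the highest bound, at least 4.36-fold. The change was higher in knockdown cells for 5 of 12 and lower for none, with medians of 1.09 and -0.04. These genes were dim, and 2 rose with 75th percentile scaling and 5 with quantile normalization without background correction.

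**Figure D4:**
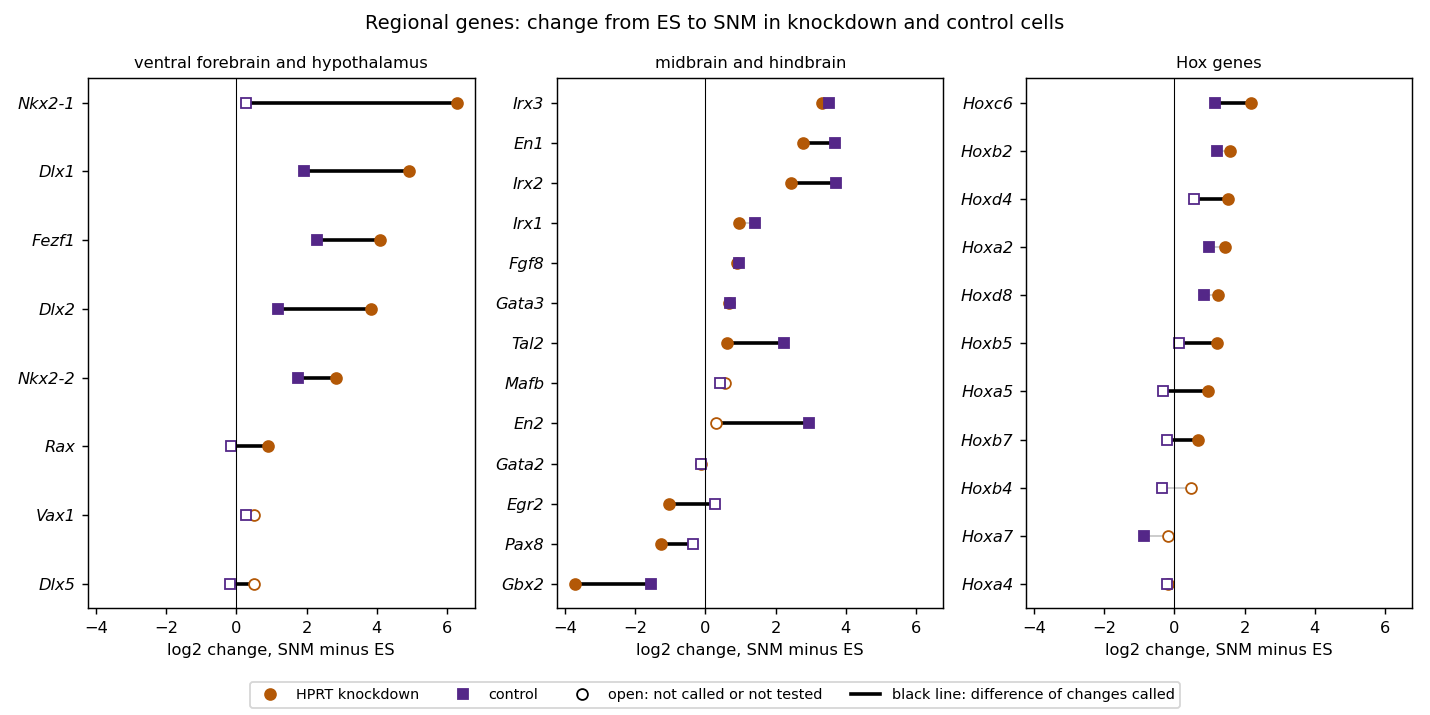
Log2 change from ES to SNM (x axis) of the tested ventral forebrain, midbrain and hindbrain, and Hox genes (y axis, genes not reported here left out), with circles for knockdown and squares for control cells, open where not called or not tested. Black lines mark called differences between the changes. Nkx2-1 and Dlx1 lie far to the right in knockdown cells, and En2 and Gbx2 lie to the left of control cells.

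Sonic hedgehog, Shh, the ligand made by the floor plate and notochord, moved with them. It read 4.45, 4.45 and 4.35 at ES and 10.91, 10.91 and 10.58 at SNM, at least 58.3-fold higher (adjusted p = 1.24e-16), and both of its probes rose. In control cells it changed by 1.08. The receptor gene Ptch1, itself induced by the pathway, rose by 0.68 and changed by -0.07 in control cells, and both its rise and its difference were lost with 75th percentile scaling. Gli1, the other common readout of the pathway, was detected on no knockdown array of either stage, and Hhip, a target that binds the ligand, changed by 0.07 and was not called. Gli2 fell by 1.29, and Nkx6-2, a ventral factor of the neural tube, rose to a mean of 8.08. Of 13 tested members of the hedgehog list 8 rose and 2 fell, with a median of 1.01.

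Genes of the dopaminergic list were mixed. Of 11 tested members 6 rose and 2 fell, with a median of 0.75 (SD 0.14), and the median was -0.17 among members detected at both stages. Th, the rate-limiting enzyme of dopamine synthesis, read 4.30, 4.57 and 4.38 at ES and 4.67, 4.70 and 4.62 at SNM, with 1 detection in 6 arrays. Slc6a3, the dopamine transporter, read 4.37, 4.33 and 4.60 and then 4.55, 4.66 and 4.54, with none. Neither was tested. Factors that act upstream in midbrain precursors rose, Lmx1a to 8.16, 8.09 and 7.87 (at least 8.61-fold) and Foxa1 to 8.97, 8.93 and 8.86 (at least 13.8-fold), and both changes were higher than in control cells (1.17 and 2.10). Over the list the change was higher in knockdown cells for 5 of 11 members and lower for 4. The list median in control cells was 0.88. Ddc, the decarboxylase shared by dopamine and serotonin synthesis, fell by 1.44, and the call of Nr4a2 (at least 1.55-fold higher), a factor of mature dopaminergic neurons, was lost in both settings without background correction.

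In the Notch list, the pathway that holds precursors undifferentiated, 13 of 18 tested members rose and none fell, with a median of 1.14. Its targets Hes5 and Hey1 rose, Hes5 from below background to 9.35, 9.24 and 9.58 (at least 21.9-fold) and Hey1 by 3.82. The ligand gene Dll1 rose by 1.41. In the Wnt list 15 of 23 rose and 4 fell. The receptor gene Fzd1 left the background, the ligand gene Wnt5a rose by 3.40 and the target Axin2 by 2.19, while Fzd5 and Tcf7 fell by 1.81 and 1.63.

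FGF and BMP genes were split, with 10 of 22 risen and 5 fallen, beside 26.4% and 30.9% of all tested probes. Fgf17, a ligand of the FGF8 family, fell from 9.53, 9.50 and 9.38 to 5.53, 5.34 and 5.04, by 4.17, and Spry4, a feedback inhibitor of FGF signalling, fell by 3.39. The BMP-responsive inhibitors of differentiation Id2 and Id4 rose by 3.18 and 3.17, whereas Id1 changed by 0.02. Among 11 tested retinoid genes 7 rose (4 with 75th percentile scaling) and 3 fell. The retinoic acid binding protein genes Crabp1 and Crabp2 rose by 1.60 and 0.90, less than in control cells (3.20 and 3.08), and the rise of Crabp2 was lost in both settings without background correction. Cyp26a1, which degrades retinoic acid, fell by 2.53.

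Astrocyte genes rose as a group. Of 21 genes on the array 20 were tested and 19 rose, with a median of 2.91 (SD 0.06). Gfap, the intermediate filament of astrocytes, read 4.66, 4.78 and 4.84 at ES and 11.25, 11.12 and 10.92 at SNM, at least 71.6-fold higher (adjusted p = 7.14e-18). Sparcl1, an extracellular protein of astrocytes and radial glia, was on average at 4.44 and 10.72, and the calcium-binding protein gene S100b at 4.40 and 7.03. The change was higher in knockdown cells for 17 of 20 members and lower for none, against 11.7% of all probes, and the medians were 2.91 and 1.97. Gfap changed by 4.42 in control cells. Apoe, the lipid carrier, singled out after its values were seen, rose by 1.81 in knockdown cells and fell by 0.77 in control cells, and the difference was called.

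Oligodendrocyte genes also rose, but less than in control cells. Of 19 tested members 16 rose and 1 fell, with a median of 2.13 (SD 0.17) against 3.04 in control cells, and the change was lower in knockdown cells for 12 of 21 and higher for 3. Olig1, a factor of oligodendrocyte and motor neuron precursors, had the largest rise of the probes detected at both stages, clone and predicted names left out. It went from 5.22, 4.87 and 5.22 to 12.98, 13.01 and 12.84, by 7.84 (SE 0.14, adjusted p = 4.23e-17), and its change in control cells, 7.57, was not called different. Sox10, a factor of the oligodendrocyte lineage and neural crest, left the background to reach 9.22, 9.32 and 9.23, at least 20.0-fold higher, and reached 11.03, 10.95 and 11.04 in control SNM. The myelin gene Mbp reached 9.94, 9.89 and 10.04 against 11.87, 11.85 and 11.79. The knockdown and control SNM arrays of Sox10 and Mbp did not overlap. Mag, a later myelin gene, rose to 6.96, 6.85 and 6.93, with 1 of its 2 probes detected. Mobp, a further myelin gene, was the member that fell, at least 2.55-fold.

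**Figure D5:**
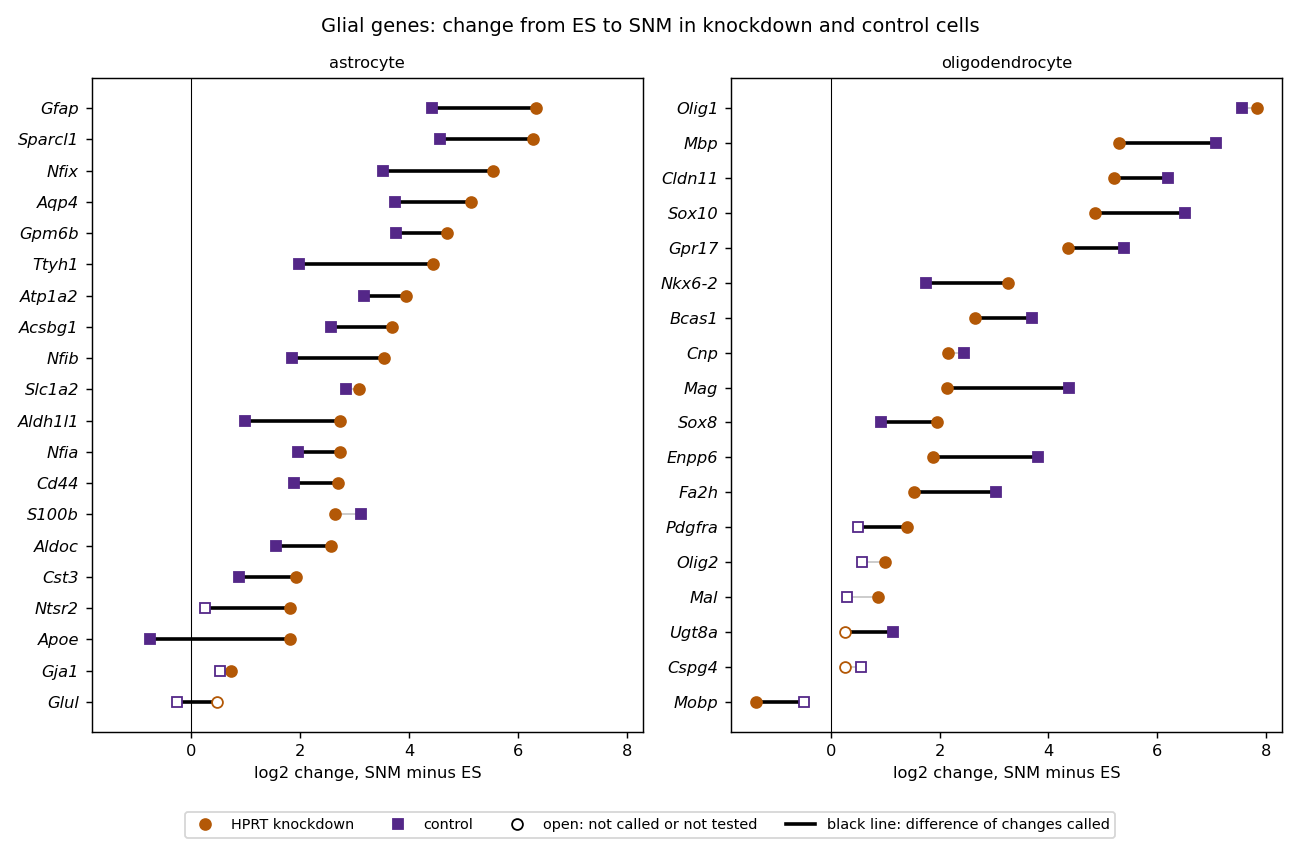
Log2 change from ES to SNM (x axis) of the tested astrocyte and oligodendrocyte genes (y axis, genes not reported here left out), with circles for knockdown and squares for control cells, open where not called or not tested. Black lines mark called differences between the changes. Knockdown cells lie to the right for 17 astrocyte genes and to the left for most of the marked oligodendrocyte genes.

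Markers of cells other than neural ones moved as well. All 23 tested genes of the fibroblast and mesenchyme list, of 24 on the array, rose, with a median of 2.54 (SD 0.15) against 2.29 in control cells. Their summed signal went from between 6593 and 6927 on the ES arrays to between 28519 and 29435 on the SNM arrays. Col3a1, a fibrillar collagen, went from 5.27, 4.70 and 4.50 to 11.66, 11.72 and 12.03, at least 110-fold, and Col1a1 from a mean of 4.55 to 8.27. In the neural crest and Schwann cell list 8 of 9 tested members rose and 1, the neurotrophin receptor gene Ngfr, fell, and the summed signal went from 1057 to 1065 up to 11858 to 13289. Their median of 3.32 was 1.46 among members detected at both stages and 0.38 over all 16 genes with no detection filter. Ednrb, the endothelin receptor of neural crest and astrocytes, went from 5.77, 5.89 and 5.24 to 12.85, 13.05 and 12.85 and rose by 7.28. The crest factor Foxd3 and the Schwann cell gene Erbb3 were detected on no knockdown array. The part of such cells in the neural and glial results was not tested.

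T, or Brachyury, the T-box factor of primitive streak and notochord on chromosome 17, stood out in the mesoderm list. It read 4.85, 5.15 and 5.19 at ES, detected on 2 arrays, and 11.49, 11.29 and 11.26 at SNM, at least 75.5-fold higher (adjusted p = 3.5e-17). It rose by 2.89 in control cells, and the difference was called. Mixl1, another streak gene, was not detected on all arrays of either stage, and Eomes and Tbx6 were not called. Of 12 tested genes of the list 7 rose and none fell, with a median of 1.84 (0.82 in control cells), and the others that rose were the muscle contractile genes Myl1, Actc1, Tnnc1, Acta1, Myl4 and Myh3. The heart factors Tbx5 and Nkx2-5 were detected on no knockdown array. The summed signal of the list went from between 1258 and 1309 to between 8915 and 9481.

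Endoderm genes mostly fell, 10 of 15 tested, with 3 risen (1 with 75th percentile scaling) and a median of -1.0. Their summed signal went from between 15666 and 16074 to between 8596 and 9404. Sox17 fell by 3.37. Gata6, a factor of primitive endoderm, fell from 10.48, 10.54 and 10.40 to 8.77, 8.75 and 8.96, by 1.65, but less than in control cells (4.06). Ttr, the thyroid hormone carrier of yolk sac, liver and choroid plexus, rose by 2.58 and changed by -0.67 in control cells. The summed signal of the trophoblast list went from between 6766 and 7088 to between 2037 and 2219. Of its 11 tested genes 4 rose (2 with 75th percentile scaling) and 4 fell, with a median of -0.04, against -1.86 in control cells, and the change was higher in knockdown cells for 7 and lower for none. Among those that fell, Rhox5 went from a mean of 11.79 to 8.64, Tcfap2c from 11.29 to 9.26 and Rhox9 from 8.24 to 5.89. Bright members such as Rhox5 and Tcfap2c weigh most in the summed signal. Krt19, a keratin of trophoblast and other simple epithelia, went from 6.75, 6.44 and 6.42 to 9.35, 9.12 and 9.05. It rose by 2.64 (SE 0.11, adjusted p = 1.33e-12) and fell by 1.79 in control cells. The smooth muscle actin gene Acta2 and the placental protease gene Ctsj, singled out after their values were seen, likewise rose in knockdown cells (1.76 and 0.96) and fell in control cells (1.10 and 2.86). Of 14 microglia and macrophage genes 10 were detected on no knockdown array, and the list's summed signal was between 478 and 501 at ES and between 324 and 338 at SNM. Of 8 tested endothelial genes 3 rose and 4 fell, with a summed signal between 834 and 949 at ES and between 688 and 750 at SNM. The part of these cell types in the results was not tested.

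Imprinted growth genes were among the brightest that rose. Igf2, the fetal growth factor, went from 8.82, 8.58 and 8.64 to 14.04, 14.14 and 14.04 and rose by 5.39 (SE 0.06, adjusted p = 5.56e-19), against 3.13 in control cells. H19, the noncoding RNA of the same locus, rose by 3.91. Dlk1, a Notch-related membrane protein, rose by 6.13 on its brighter probe. Of 14 tested imprinted genes 10 rose and 1, Phlda2, a growth inhibitor of placenta, fell. The list's summed signal went from between 9423 and 9731 to between 79476 and 85636.

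Purine enzymes fell more often than they rose. Of 25 tested genes 13 fell and 3 rose, with a median of -0.85 (SD 0.14) against -0.43 in control cells. The 3 that rose were Hprt1 itself, the guanosine monophosphate reductase gene Gmpr (1.56) and the ecto-nucleotidase gene Nt5e (at least 3.00-fold, with its other probe not called). Ppat, the first committed step of de novo purine synthesis, fell by 1.98, Adsl by 1.40 and Impdh2, which opens the branch to guanine nucleotides, by 1.26. Aprt, the salvage enzyme for adenine, was lower by 0.48 and not called, and it passed the threshold with 75th percentile scaling (-0.87) and without scaling (-0.61). Of 19 tested glycolysis genes 8 rose and 2 fell, Aldoc and Eno2, the brain isoforms of aldolase and enolase, rising by 2.57 and 2.56 and the neuronal-type glucose transporter gene Slc2a3 falling by 1.5. With 75th percentile scaling 4 rose and 4 fell.

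Of 16 tested subunits of the BAF chromatin remodelling complex 6 rose and 2 fell, beside 26.4% and 30.9% of all tested probes. The ATPase gene Smarca2 rose by 3.54 and Smarcd3, a subunit of neural and muscle complexes, by 2.30, the latter against 0.25 in control cells. Of the subunits that exchange as precursors become neurons, Actl6a, of the precursor complex, fell by 0.82, while Actl6b and Dpf1, of the neuronal complex, had changes of -0.13 and -0.31 on their brightest probes and were not called. Of 4 probes of Actl6b 2 rose, so the probes of this gene disagree. Of 7 tested DNA methylation genes 2 rose and 3 fell, beside the same shares of all probes. Dnmt3l, the germ cell and ES cell cofactor of de novo methylation, fell by 2.33, and Dnmt3b rose by 0.89, a rise lost with 75th percentile scaling and not called on its other probe (0.16).

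The largest rises overall joined these groups. Among probes detected at both stages, Olig1 and Ednrb were followed by Car3, a carbonic anhydrase of muscle and fat, which went from 6.28, 6.34 and 6.12 to 13.54, 13.42 and 13.56 and rose by 7.26 (SE 0.12). Col2a1, the collagen of cartilage and notochord, rose by 6.05, Igfbp5, a binding protein of insulin-like growth factors, by 6.84 on the dimmest and 6.57 on the brightest of its 3 probes, and Cpe, which processes neuropeptides, by 5.77. Among probes not detected on all 3 ES arrays, clone and predicted names left out, Ptn had the largest bound, at least 210-fold. This neurite-promoting growth factor was detected on 2 ES arrays and reached 12.87, 12.77 and 12.95 at SNM. The membrane receptor gene Mmd2 reached 12.10, 12.09 and 11.91 (at least 137-fold), and Prelp, a proteoglycan of connective tissue, 11.16, 11.24 and 10.95 (at least 72.8-fold). None of these arrays overlapped between stages. Only 1 of the 2 probes of Ptn was detected.

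Of the 5663 probes that rose in knockdown cells, 1968 changed more upward than in control cells and 214 less. Of the 6629 that fell, 1377 changed more downward and 172 less. Over all probes tested for the difference, 11.7% changed more upward and 9.61% more downward. The probes were picked by the knockdown change, which is itself part of the difference. An excess in the same direction was thus partly built in, and no conclusion is drawn from it. Clone and predicted names again left out, the highest difference after Nkx2-1 was that of Ptgs1, the cyclooxygenase 1 gene. It read 4.44, 4.40 and 4.44 at ES and 10.50, 10.43 and 10.47 at SNM in knockdown cells (at least 46.3-fold) and changed by 0.07 in control cells. Shh, Car3, Angptl1, an angiopoietin-related secreted protein, and Pde1a, a calmodulin-dependent phosphodiesterase, were also among the highest. In the other direction, Mmp3, a matrix protease, and the crest factor Tcfap2b rose less than in control cells on a dimmer probe. These dimmer probes rose by 1.39 and 2.19, and the brightest probes of Mmp3 and Tcfap2b by 2.43 and 3.32. Mag, too, rose less than in control cells.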

How the data were processed

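Illumina MouseWG-6 v2 arrays measured the pooled RNA of each condition, 3 per condition and 18 in all. The authors deposited non-normalized probe intensity values with a detection p-value for each probe and array, and both were used as deposited. In R 4.3.3 with limma 3.58.1, intensities were background-corrected from the detection p-values, given an offset of 16, quantile-normalized and log2-transformed (neqc). One linear model held the 6 conditions, with empirical Bayes moderation. Its contrasts were knockdown SNM minus knockdown ES, and this change minus that of control cells. A probe was tested where any condition compared had it at a detection p under 0.05 on all 3 arrays. Calls needed a Benjamini-Hochberg adjusted p under 0.05 and at least 1.5-fold. With 3 arrays against 3 a two-sided exact permutation test of 1 value cannot go below 0.1. The number of arrays limits the precision.

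A level that fewer than 3 arrays of a stage detected was bounded, per array, by the higher of its own signal and the lowest detected signal. A gene was represented by the probe with the highest mean over the 6 knockdown arrays. Named were Hprt1 and the genes followed by qPCR, the 10 largest rises and falls between detected stages and the 10 largest by bound, clone names left out, the first 4 genes of each list and its largest called changes, and the largest differences from control cells. The members and lists were chosen with earlier results of these data known. Of 31508 probes with an NCBI gene ID, 30630 matched the RefSeq table. Promoters came from RefSeq. The fit was tested on simulated data with independent noise and a small share of changed probes. That test left out the normalization, so it says nothing of how the counts depend on scaling. Figures were drawn with Python 3.11.15 and matplotlib 3.10.9. Of the columns deposited, 72 matched no sample label and were not used. The other stages and other assays of the study were not analysed here. Some genes that belong to the lists, and are counted there, are not reported here by name.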

Additional observations from a re-analysis of the deposited data

Results flagged for a closer look

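For the following genes the change from ES to SNM differed between knockdown and control cells by the test of the difference itself. Values are log2 changes in knockdown cells minus those in control cells, fitted also where a probe was below background in a condition, and a difference read there is no bound. Shared RNA pools limit these tests to the pools compared.

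Among regional and signalling genes the difference was 6.02 for Nkx2-1, 5.31 for Shh, 2.99 for Dlx1, 2.29 for Lmx1a, 1.88 for Foxa1 and 1.52 for Nkx6-2. It was -2.65 for En2, -2.17 for Gbx2, -1.85 for Fgf17, -1.60 for Crabp1 and -2.17 for Crabp2. Neural and glial genes higher in knockdown cells were Gfap at 1.91, Sox9 at 1.66, Syp at 1.63, Gad1 at 1.26, Cpe at 1.90 and Mmd2 at 3.50. The myelin and oligodendrocyte genes Mag, Mbp and Sox10 had -2.25, -1.77 and -1.65. The sensory and crest factors Pou4f1 and Tcfap2b had -1.84 and -2.27, the latter on a dimmer probe.

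Among genes of other tissues the difference was 3.40 for T, 4.59 for Car3, 1.88 for Col2a1, 4.27 for Prelp, 4.42 for Krt19, 3.25 for Ttr and 2.41 for Gata6. It was 5.97 for Ptgs1, 4.56 for Angptl1, 4.29 for Pde1a and 3.90 for Rab38, a GTPase of pigment granules. The matrix protease gene Mmp3 had -2.37 on a dimmer probe and the endothelial sialomucin gene Emcn -1.73. Of the imprinted genes, Igf2 had 2.25 and Peg3 2.02. The chromatin subunit gene Smarcd3 had 2.05, and the targeted gene Hprt1 2.33. Of the genes that fell further in knockdown cells, Tex19.1, of ES cells and the germline, had -2.59, D14Ertd668e -2.35 and Ly6g6e -2.23. The cell cycle genes Ccne1, Mcm3 and Ccnb1 had -1.01, -0.77 and -0.64.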

How the results depend on the processing

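Arrays of 1 RNA pool per condition carry no spread between cultures, and dim probes limit what could be called, since probes near background gave only bounds. Among the genes named by the rules above, no direction of a called change or difference reversed under any alternative run. For the other probes only counts were compared. The main counts were 5663 risen, 6629 fallen, 2595 changed more upward and 2126 more downward than in control cells. Quantile normalization without background correction gave 1540 and 1031 for the differences. Scaling to the 75th percentile gave 3612 risen and 1481 higher differences. Detection in every condition compared gave 3192 and 1376, a smaller number of probes being tested. A 2-fold threshold gave 3744 fallen, 1075 higher and 416 lower differences. For all except the filter and the threshold, the cause was not tested. Leaving out each array in turn gave 5650 to 5709 risen, 6539 to 6678 fallen, 2540 to 2664 higher and 2065 to 2318 lower differences. Arrays with the same number in knockdown ES and SNM deviated with correlations of 0.33, 0.06 and 0.23, and other-numbered ones with -0.26 to 0.07. Knockdown ES array 2 correlated better with SNM array 3 (0.07) than with SNM array 2. What same-numbered arrays share was not tested. Same-numbered knockdown and control SNM arrays correlated at 0.51, 0.11 and 0.50, and other-numbered ones at -0.54 to 0.20, but same-numbered ES arrays at -0.11, 0.02 and 0.10. With the array number as a replicate block the counts were 5677, 6661, 2627 and 2236, and none of the gene calls refitted this way changed. The methods' unpaired t-test gave 5636 and 6541 at its threshold and 5605 and 6493 after Benjamini-Hochberg adjustment, and the methods' paired t-test 5421 and 6304, then 5131 and 5924. A fit of the 6 knockdown arrays alone gave 5663 and 6625. The median change of the trophoblast list became 0.32, of the DNA methylation list 0.20 and of the microglia list 0.04 without scaling, of the adhesion list -0.04 and of the dopaminergic list -0.17 among members detected at both stages, and of the BAF list -0.09 with 75th percentile scaling. Without knockdown ES array 2 the trophoblast median was 0.01.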
